A study of Arabidopsis thaliana with 21 samples.

Results

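REVOLUTA (REV, AT5G60690), PHABULOSA (PHB, AT2G34710), PHAVOLUTA (PHV, AT1G30490), CORONA (CNA, AT1G52150) and HB8 (AT4G32880) make up the class III HD-ZIP family of Arabidopsis thaliana. They were taken by locus identifier from the TAIR10 gene annotation deposited with an RNA sequencing series, and are 5 of its 27206 nuclear protein-coding genes. The series holds 21 libraries of accession Col-0 in 7 groups of 3, of which 15 are from stem, and all plants grew with 16 h of light per day at 20 °C. Both wild type (WT) and soc1-ful, a genotype named for the MADS-box genes SOC1 and FUL, gave leaf, herbaceous stem and cambium stem, and soc1-ful also gave wood stem. The labels give no plant age and do not describe the soc1 and ful alleles. Every value below is a property of the gene annotation or of the reference sequence. Expression and depth per library are not analysed here, so there are no replicates and no tests between groups.

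Class III HD-ZIP proteins are transcription factors that join a DNA-binding homeodomain and a leucine zipper, through which they dimerise, to a lipid-binding type of domain called START and a C-terminal MEKHLA domain. They specify the upper side of leaves, keep shoot meristems active and pattern the vascular bundles, where HB8 marks the earliest procambial cells and REV is needed for interfascicular fibres. Their transcripts are cut under the direction of the microRNAs miR165 and miR166, loaded on AGO1, while AGO10 withholds these microRNAs from AGO1. ZPR proteins are little zippers that pair with the HD-ZIP zipper, KANADI proteins act on the opposite side of the organ, and the auxin response factor MP activates HB8.

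The microRNA site is shown first because the stretches of coding sequence that the 5 genes share most closely all overlap it. Mature miR165, from the genes MIR165A and MIR165B, and mature miR166, from the 7 genes MIR166A to MIR166G, are given 5′ to 3′ as read from the RefSeq annotation and sequence of TAIR10.1, with the seed, bases 2 to 8, in capitals.
miR165: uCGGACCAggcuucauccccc
miR166: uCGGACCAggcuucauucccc
The seed was the same in both. The only difference was C17U, counted from 1 at the 5′ end of the microRNA with the base of miR165 first.

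Each member held 1 such site in its coding sequence, and the next best window of its transcript had 7 or 8 mismatches. The sites are written 5′ to 3′ as RNA, and capitals mark the bases that do not form a Watson-Crick pair with miR165.
REV: CUgggaugaagccugguccgG
PHB: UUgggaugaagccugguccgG
PHV: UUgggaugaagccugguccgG
CNA: CUggAaugaagccugguccgG
HB8: CUgggaugaagccugguccgG
There were 3 distinct sequences among the 5 sites: REV and HB8 shared one, PHB and PHV another, and CNA had its own. Counted from 1 at the 5′ end of the site, with the base of a perfect complement first, REV and HB8 departed from miR165 at G1C, G2U and A21G. PHB and PHV departed at G1U, G2U and A21G. CNA departed at G1C, G2U and A21G and also at G5A, opposite the base at which the microRNAs differ. Against miR166 the order was the other way round, with 3 mismatches in CNA and 4 in each of REV, PHB, PHV and HB8, where position 5 read A5G. With G:U counted as a pair, each of these 4 genes had 2 mismatches to both microRNAs, whereas CNA had 3 to miR165 and 2 to miR166.

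The site was assembled by splicing in all 5 genes. Its first 11 bases lay at the end of coding exon 4 and its last 10 at the start of coding exon 5, with an intron of 91 bp in REV, 116 bp in PHB, 95 bp in PHV, 89 bp in CNA and 82 bp in HB8 between them. In TAIR10 positions the REV site lay on the plus strand of chromosome 5 at chr5:24398787-24398797 and chr5:24398889-24398898. The others lay on the minus strand. Those of PHB were at chr2:14642656-14642666 and chr2:14642530-14642539, and those of PHV at chr1:10799435-10799445 and chr1:10799330-10799339. The CNA pieces were at chr1:19413075-19413085 and chr1:19412976-19412985, and the HB8 pieces at chr4:15866964-15866974 and chr4:15866872-15866881. The site began in codon 184 of REV, 197 of PHB, 193 of PHV, 184 of CNA and 183 of HB8, which lies past the zipper. In the unspliced genes the best match to miR165 had 5 mismatches in REV, 6 in PHB and in PHV, 7 in HB8 and 8 in CNA, so the spliced sequence carried the closer match in each gene.

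Across the first listed transcript of every nuclear coding gene, the fewest mismatches to either microRNA were counted over all windows of 21 bases. The limit of 3 mismatches was set at the poorest value among the members, so all 5 of 5 lie within it by construction. No other gene did, and the 0.0184% of coding genes within the limit are the members themselves. With G:U counted as a pair and the limit set in the same way, 13 genes lay within it. A further 7 genes had 4 mismatches and 56 had 5, and the largest class, 10849 genes, had 9. Class IV HD-ZIP genes, whose proteins also carry a homeodomain, a zipper and a START domain, had 6 to 9 mismatches, and KNOX homeobox genes 8 or 9. A match of this kind describes sequence, and cleavage was not measured.

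**Figure D1:**
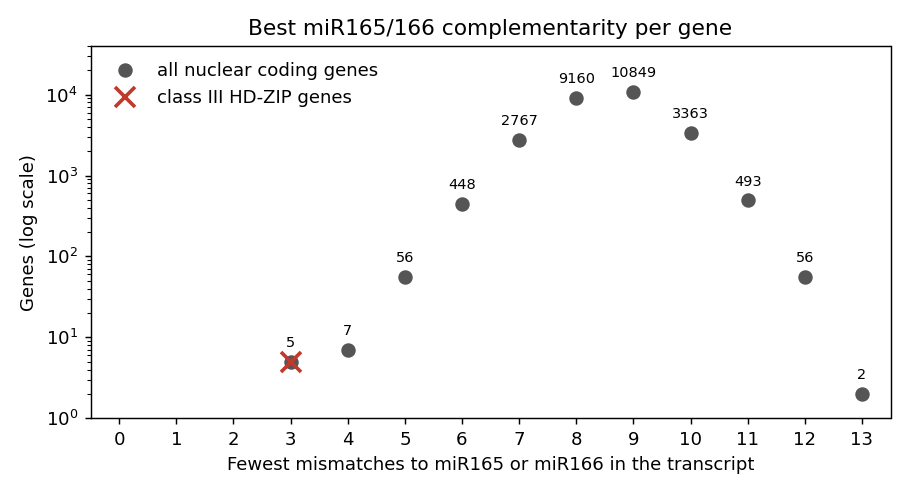
Number of nuclear coding genes (vertical axis, log scale) by the fewest mismatches to miR165 or miR166 in the first listed transcript (horizontal axis); grey points are all genes and the red cross marks the 5 class III HD-ZIP genes. The 5 members stand alone at 3 mismatches, next to 7 genes at 4.

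Bases of the site were identical in all 5 genes more often than the rest of the coding sequence. The sites were picked by their match to the same microRNAs, so part of this likeness follows from how they were chosen. In an alignment of the 5 coding sequences, 19 of the 21 site bases were identical in all members, against 47.4% of the 2367 other aligned coding columns. At the third position of codons, where a change often leaves the amino acid as it was, 6 of 7 site columns were identical, against 106 of 789 elsewhere (13.4%). Of 2112 windows of 21 bases, 8 held at least 19 identical bases, a limit set at the value of the site itself, and all 8 overlapped the site. The most in any window was 20, and the median window held 11.

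The gene models were alike in size and number of exons. REV, on the plus strand of chromosome 5 (chr5:24397023-24402195), spanned 5173 bp and had 18 exons, all with coding sequence. PHB (chr2:14639323-14644273) spanned 4951 bp with 17 exons, and PHV (chr1:10796135-10800961) spanned 4827 bp with 18. CNA (chr1:19409711-19414678) spanned 4968 bp with 18 exons, and HB8 (chr4:15863452-15868625) spanned 5174 bp with 18 exons, of which 17 held coding sequence. PHB, PHV, CNA and HB8 are all on the minus strand. The median nuclear coding gene had 4 exons over 1918 bp. At least 17 exons, the fewest in any member, were found in 3.84% of coding genes.

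The coding sequences covered a narrow range, from 2502 bp in HB8 to 2559 bp in PHB, for proteins of 833 residues in HB8, 836 in CNA, 841 in PHV, 842 in REV and 852 in PHB. The untranslated regions (UTRs) ranged more widely. The 5′ UTR was 711 bp in REV and 717 bp in CNA, 386 bp in HB8, 280 bp in PHB and 217 bp in PHV, beside a median of 102 bp over the 19493 genes with one annotated. REV and CNA were thus among the 0.569% of these genes with a 5′ UTR of 700 bp or more, a limit that lies just below their own lengths. The 3′ UTR was 262 bp in REV, 225 bp in PHB, 202 bp in CNA, 193 bp in PHV and 135 bp in HB8. In the newer TAIR10.1 annotation the coding lengths and exon numbers were the same, while the 5′ UTR was longer in every member, at 753 bp in REV, 362 bp in PHB, 349 bp in PHV, 803 bp in CNA and 411 bp in HB8. The 3′ UTR of HB8 was 248 bp there.

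**Figure D2:**
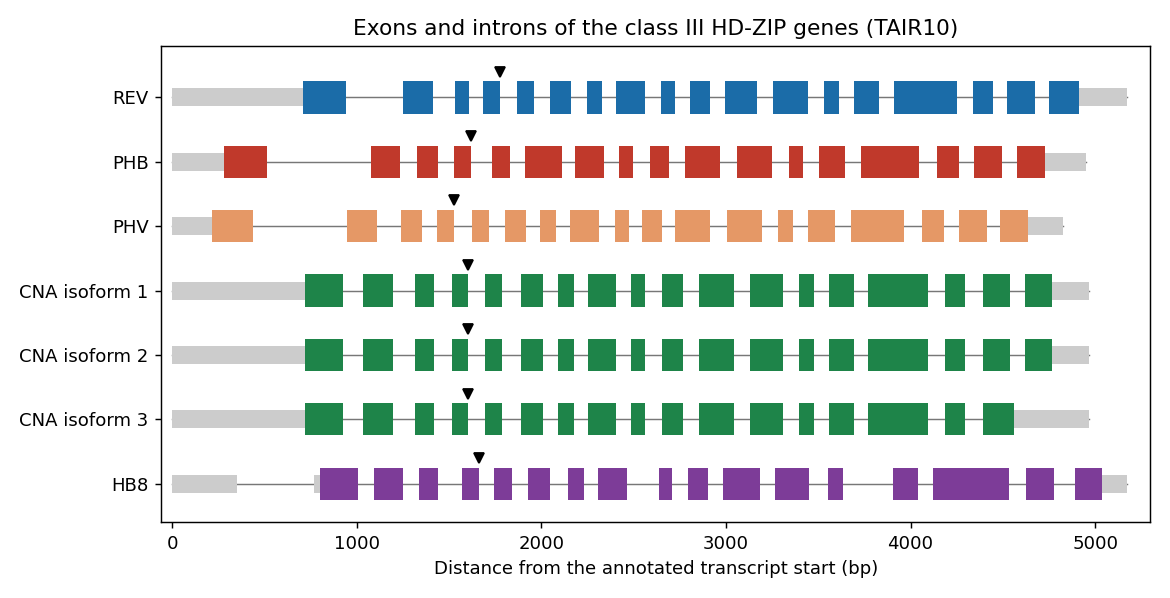
Gene models, with all 3 isoforms of CNA, drawn 5′ to 3′ to scale in bp from the transcript start, with tall boxes for coding sequence, low boxes for UTRs and lines for introns; the triangle marks the site for miR165 and miR166. Every model has 17 or 18 exons, and HB8 alone begins with an exon that is UTR throughout.

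Matched through an alignment of the proteins, the coding sequences fell into 18 exons with 17 junctions, and 15 of these junctions carried an intron in all 5 genes. Introns were counted at the same junction when they had the same phase, the place within a codon, and fell within 5 alignment columns of each other. Coding exons 4 (91 bp), 5 (96 bp), 8 (156 bp), 9 (75 bp) and 13 (81 bp) had 1 length in all 5 members, and exons 4 and 5 are those that hold the microRNA site. Exons 6 (114 bp) and 7 (84 bp) had 1 length in the 4 genes in which they are separate. At all 18 exons the lengths differed between members by multiples of 3 or not at all, which matching on phase requires. The intron fell between codons (phase 0) at 13 junctions and after the second base of a codon (phase 2) at junctions 1, 3, 10 and 15, with 0 junctions of phase 1. Phases were not counted over all coding genes, so there is no background for these counts.

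Lengths varied most in coding exons 1, 3, 11 and 15. Coding exon 1, in which a signature of the homeodomain's recognition helix begins, was 233 bp in REV and PHB, 221 bp in PHV, 209 bp in CNA and 203 bp in HB8. Coding exon 2, where the leucine heptads begin, was 163 bp in REV and 160 bp in the others. Coding exon 3 was 74 bp in REV, 101 bp in CNA, 104 bp in HB8 and 116 bp in PHB and PHV, so that REV was 27 to 42 bp shorter there. Coding exon 11 was 175 bp in REV, 190 bp in PHB, PHV and CNA and 196 bp in HB8. Coding exon 15 was 338 bp in REV, 326 bp in CNA, 314 bp in PHB and 290 bp in PHV, and the last exon was 159 bp in REV and 147 bp in the other 4. A single gene departed from the other 4 at coding exons 2 and 18 (REV), 10 (CNA, 113 bp against 107 bp) and 17 (HB8, 156 bp against 150 bp).

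**Figure D3:**
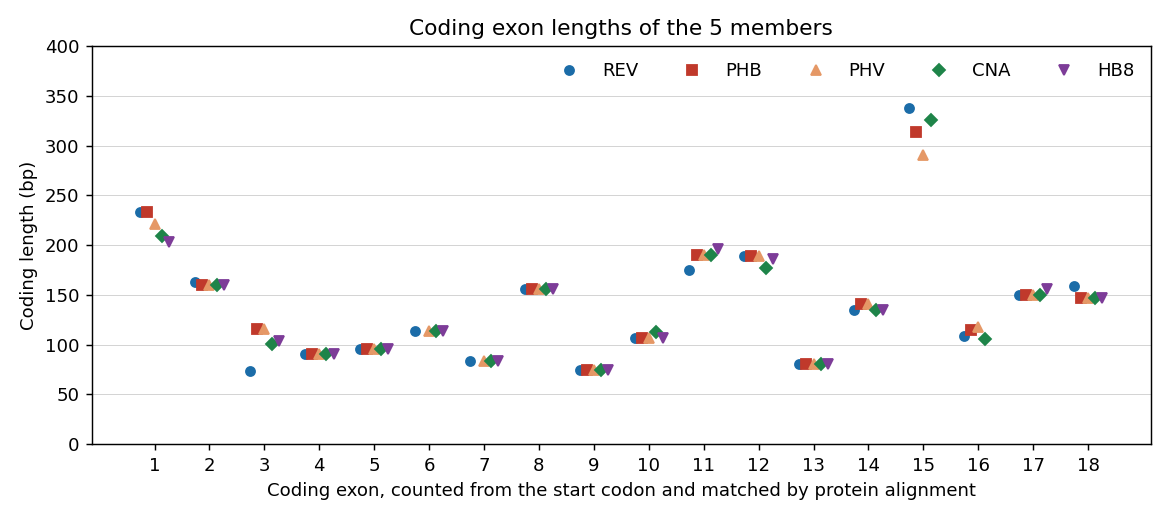
Length in bp of each coding exon (vertical axis) by its order after matching through the protein alignment (horizontal axis), with 1 symbol per gene. Symbols are level at exons 4, 5, 8, 9 and 13 and spread most at exon 15, from 290 bp in PHV to 338 bp in REV; the joined exons of PHB and HB8 are left out.

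The exceptions to the shared structure were a junction without an intron in PHB and another in HB8. In PHB coding exons 6 and 7 were a single exon of 198 bp, which equals the sum of the separate exons in each other gene. In HB8 coding exons 15 and 16 were a single exon of 411 bp, within the 408 to 447 bp of the others. The spliced sequence across the first of these junctions is shown because it shows where the other genes carry the intron that PHB lacks. The 30 bases run 5′ to 3′ and capitals mark the base on each side of the junction.
REV: cttgtttatatgcaGAcgtatgcaccaacg
PHB: cttatttacacgcaGAtgtatgctcctacg
PHV: cttgtcaacactcaGAtttatgctcctaca
CNA: ctgctttatatgcaGCtctatgcaccaact
HB8: ctaatctacatgcaGCtttatgcgccgaca
PHB runs through this point without interruption at chr2:14642234-14642263, on the minus strand. REV has an intron of 82 bp here, and its window with the intron is chr5:24399171-24399282 on the plus strand. On the minus strand PHV has one of 76 bp (chr1:10798953-10799058), CNA one of 86 bp (chr1:19412572-19412687) and HB8 one of 102 bp (chr4:15866465-15866596).

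The same view of the junction between coding exons 15 and 16 shows HB8 uninterrupted at chr4:15864176-15864205, on the minus strand, with capitals as before.
REV: ctctcaaagttacaGTcatcacttaggctc
PHB: ctcccggagttacaGCcttcacactggtgc
PHV: cacccgtagttacaGTattcatacaggtgc
CNA: ttgccagagttacaGGggctacatgggtgt
HB8: ctctcactcttataGAtgttaccttggcgt
The intron at this junction was 88 bp in REV (chr5:24401259-24401376, plus strand), 98 bp in PHB (chr2:14640113-14640240), 98 bp in PHV (chr1:10796883-10797010) and 92 bp in CNA (chr1:19410476-19410597), the last 3 on the minus strand.

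Introns of the members were short. Their 84 introns had a median of 86 bp, against 99 bp over 117151 introns of nuclear coding genes. After the first intron of each gene, the remaining 79 introns ran from 72 to 274 bp, and 68 of them (86.1%) were under 100 bp, as were 54.3% of the 95903 later introns of all nuclear coding genes. With first introns included the shares were 68 of 84 and 58586 of 117151. Introns made up 31.0% of the span of CNA, 32.3% of REV, 38.1% of PHB, 39.2% of PHV and 41.6% of HB8. The members are related genes, so these introns are not independent of one another.

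The longest introns lay at the 5′ end. The first intron was the longest in 4 of 5 members, CNA being the exception and the intron in the 5′ UTR counting for HB8, beside 42.9% of coding genes with at least 2 introns. At coding junction 1, the intron was 562 bp in PHB, 511 bp in PHV, 308 bp in REV, 109 bp in CNA and 86 bp in HB8. PHB and PHV stood highest, CNA and HB8 lowest, and the longest was 6.53 times the shortest. Junctions 8 and 13 were set apart by HB8, with 173 bp and 274 bp where the other 4 genes had 81 to 88 bp and 82 to 86 bp. HB8 had the longest intron at 6 of the 16 coding junctions at which it has one. At 11 of the 17 junctions the longest intron was at most 1.5 times the shortest, and at junction 7 the 5 lengths lay between 74 and 78 bp.

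**Figure D4:**
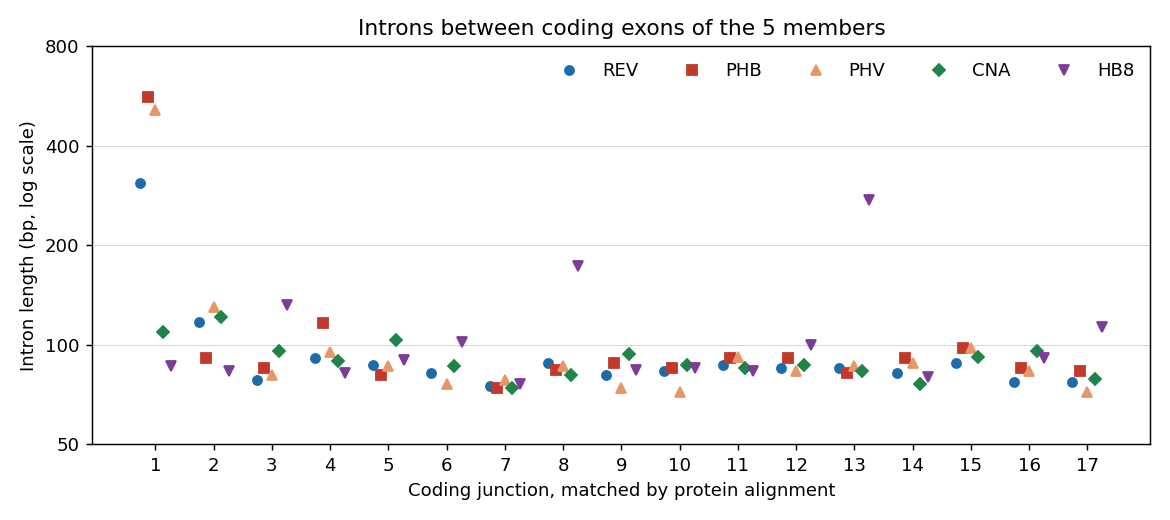
Intron length in bp (vertical axis, log scale) at each coding junction (horizontal axis) in the 5 genes, with 1 symbol per gene. Most lie between 72 and 132 bp, with PHB, PHV and REV higher at junction 1 and HB8 higher at junctions 8 and 13.

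HB8 was the 1 member of 5 with an intron inside the 5′ UTR, as were 13.3% of coding genes. Its first exon of 349 bp was UTR throughout, followed by an intron of 417 bp, and the other 37 bp of the 5′ UTR stood at the start of exon 2, ahead of the start codon. The intron's ends are shown 5′ to 3′ on the minus strand, with its first and last 2 bases in capitals.
HB8 5′ UTR donor: aatatttttacgGTatctataaga
HB8 5′ UTR acceptor: tttgtaataaAGgaacaaaattaa
The donor lay at chr4:15868265-15868288 and the acceptor at chr4:15867848-15867871. An intron in the 3′ UTR was annotated in 0 of 5 members and in 3.37% of coding genes.

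HB8 also held the 1 intron of the 84 that did not begin with GT. Its intron 13, of 100 bp at coding junction 12, began with GC and ended with AG. Over all nuclear coding genes 115906 introns (98.9%) were of the GT-AG kind and 1139 (0.972%) of the GC-AG kind. The donors of HB8, REV, PHV and CNA at this junction are shown with the first 2 intron bases in capitals, after the end of the exon.
HB8: gagaatgaagagGCaagtactcta
REV: gaacacgaagaaGTaaggcttcaa
PHV: gaacatgaagagGTacaaagaatc
CNA: gagcatgaagagGTtagtttaatt
The HB8 donor was read at chr4:15865163-15865186, and the others shown, with GT, at chr5:24400456-24400479 (REV, plus strand), chr1:10797753-10797776 (PHV) and chr1:19411359-19411382 (CNA). The donors of HB8, PHV and CNA lie on the minus strand. PHB also has an intron at this junction, of 91 bp and of the GT-AG kind, and its donor is not shown.

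CNA was the 1 member of 5 with more than 1 isoform, as were 21.3% of coding genes, and it had 3 in both annotations. Isoform 1 encoded 836 residues and isoform 2 encoded 837. They differed by an acceptor shifted by 3 bp before exon 15, which was 326 bp in isoform 1 and 329 bp in isoform 2. The choice lies within the stretch below, at chr1:19410900-19410926 on the minus strand, where capitals mark both AG acceptors.
CNA acceptors: cttgaaccaaaaaAGcAGgaagtatct
Isoform 3 kept intron 17, of 79 bp, at chr1:19410060-19410138. It shared the first 788 residues with isoform 1 and then ended after 6 others in place of 48, for a protein of 794 residues. Of the retained intron, 21 bases were coding, and the 3′ UTR was 407 bp in place of 202 bp. The missing residues are part of the C-terminal end of the protein. The ends of the retained intron, at chr1:19410127-19410150 and chr1:19410048-19410071 on the minus strand, are shown with its first and last 2 bases in capitals.
CNA intron 17 donor: atcatgcaacagGTtcttagaaac
CNA intron 17 acceptor: ctattttttcAGggcttcgcgtgc
Both ends had the GT and AG of the usual kind. The microRNA site was in all 3 isoforms.

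All 5 members had at least 1 ATG in the 5′ UTR, as did 35.0% of coding genes with an annotated 5′ UTR. REV had 2, PHB 1, PHV 2, CNA 9 and HB8 2, and every one opened a reading frame that closed within the 5′ UTR. How often such frames close within the 5′ UTR over all coding genes was not counted, so there is no background for this closure. The longest of these frames had 31 codons in PHV, 21 in CNA, 18 in PHB, 13 in HB8 and 11 in REV. Long 5′ UTRs hold more such triplets: among the 3529 genes with a 5′ UTR at least as long as that of PHV, 83.0% had one. Per length the members, at 6.92 per kb over 2311 bp, were near the 6.30 per kb of all genes, with 12.6 per kb in CNA and 2.81 per kb in REV at the extremes.

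The proteins fell into a close pair, a second pair and REV. PHB and PHV were identical at 86.8% of aligned residues and CNA and HB8 at 77.1%. The other 8 pairs ranged from 63.1% for PHV and HB8 to 69.3% for REV and PHV. In coding sequence the same pairs led, with 83.8% for PHB and PHV and 72.3% for CNA and HB8. The intron at coding junction 1 followed the same grouping, long in PHB and PHV and short in CNA and HB8. The missing introns did not, since PHV has the one PHB lacks and CNA has the one HB8 lacks.

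Identity was uneven along the protein. All 5 members shared 421 of 796 ungapped alignment columns (52.9%). By exon the share was highest in coding exons 4 (74.2%), 2 (73.1%) and 1 (70.1%), and lowest in coding exons 13 (33.3%), 16 (36.4%) and 15 (38.0%). A sequence signature of the homeodomain's recognition helix (helix 3) began at residue 73 of REV and PHB, 69 of PHV, 65 of CNA and 63 of HB8. It always began in coding exon 1, and the start of the helix itself was not located. The leucine heptads began 17 residues after the start of the signature in each, in coding exon 2. Coding exon 13 was therefore 1 length in all 5 genes yet the least alike in residues. PHB and PHV ranged from 76.3% in coding exon 15 to 97.1% in coding exon 10, and CNA and HB8 from 57.6% in coding exon 16 to 92.6% in coding exon 2.

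**Figure D5:**
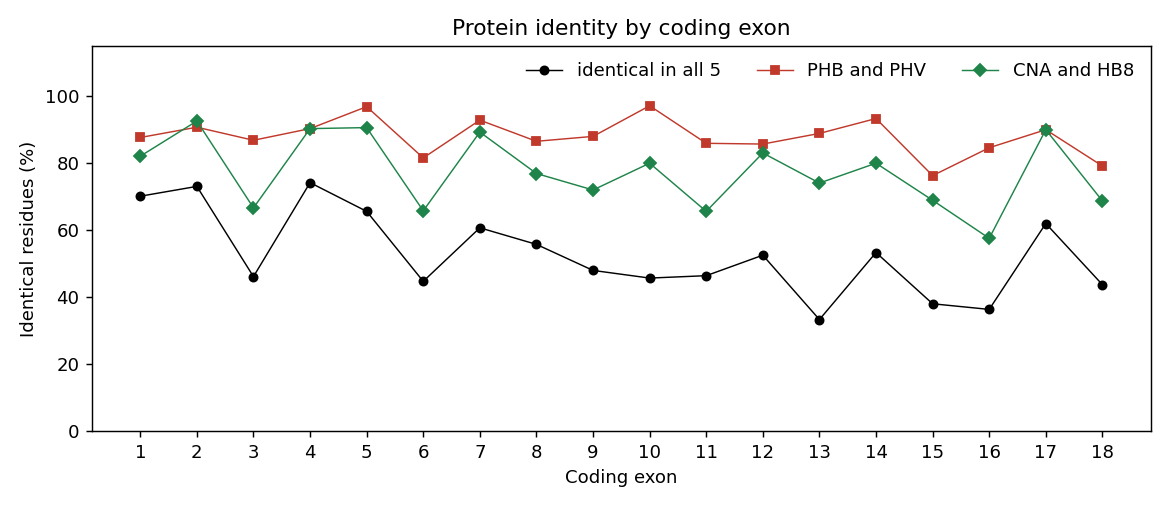
Share of residues that are identical (vertical axis, %) in each coding exon (horizontal axis), for all 5 proteins, for PHB with PHV and for CNA with HB8. The share in all 5 is highest at exons 1, 2 and 4, at 70.1 to 74.2%, and lowest at exon 13, at 33.3%.

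Exact stretches shared between transcripts were short. PHB and PHV shared 64 bp across coding exons 2 and 3, and the other pairs shared at most 20 to 29 bp. In 7 of 10 pairs the longest shared stretch overlapped the microRNA site. Of all words of 50 bases in a transcript, 15 in PHB (0.498%) and 15 in PHV (0.520%) occurred in another member, and 0 in REV, CNA and HB8. At 25 bases the shares were 3.68% in PHB, 3.95% in PHV, 0.333% in HB8, 0.201% in REV and 0 in CNA, and at 100 bases they were 0 in all 5. No stretch longer than 64 bases was thus the same in any 2 of the spliced transcripts. The read length of the libraries is not known here.

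REV was the 1 member of 5 whose exons overlapped another gene. The share of all coding genes with such an overlap was not counted, so there is no background for this count. AT5G60700, on the opposite strand, shared 67 bp with its 3′ UTR, which is 25.6% of that UTR and 1.91% of the exonic bases of REV. The overlap of REV was the same in TAIR10.1. Such overlaps with a gene on the opposite strand were not limited to REV. In TAIR10 they were 198 bp in GL2 and 200 bp in HDG2, both class IV HD-ZIP genes, and 25 bp in KAN1. The libraries are labelled strand-specific, but no label says how strand entered the counting of reads.

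PHB and PHV also had related neighbours. Of the 20 coding genes on each side, 8 of 40 around PHB had a protein match among those around PHV, and 10 of 40 the other way. At most 4 matches lay in the same order, and the last of them also belongs to a run in the reverse order. In that run, upstream genes 10, 12, 13 and 14 from PHB matched genes 19, 17, 15 and 14 from PHV, each pair on opposite strands. The gene next upstream of each, on the same strand, encodes a subunit of the NF-Y transcription factor: NF-YA4 at 5493 bp from PHB and NF-YA7 at 3488 bp from PHV. Further matches included WRKY35 with WRKY14 and the transporter gene ABCC2 with ABCC1, ABCC11 and ABCC12. For CNA and HB8 the counts were 3 of 40 and 2 of 40, and for the other 8 pairs 1 to 4. With 10 genes on each side, PHB and PHV had 2 and 3 matched neighbours, PHB and HB8 had 2 and 2, and CNA and HB8 had 0. By count alone, PHB and PHV thus did not stand apart at that distance. The matches were not of equal strength. Under a stricter e-value limit, with 20 genes on each side, PHB and PHV kept 8 and 10. PHB and HB8 then had 0 and 0, and the highest count in any other pair was 4.

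Other homeobox families were built differently. The 16 class IV HD-ZIP genes, most of which act in the epidermis, had a median of 10 exons, from 8 in HDG7 to 12 in PDF2, HDG2 and HDG3, and a median coding length of 2168 bp. An intron in the 5′ UTR was annotated in 5 of them, and in 8 in TAIR10.1. More than 1 isoform was annotated in 4 of them in TAIR10, and in a larger number of them in TAIR10.1. The 8 KNOX genes, which include the meristem gene STM, had a median of 5 exons, from 4 in STM to 6 in KNAT3, KNAT4 and KNAT5, and 0 had an intron in the 5′ UTR. Median intron length was 91 bp in class IV and 177 bp in KNOX genes, beside 86 bp in class III.

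Of the 20 regulators and partners looked up, 10 were annotated as coding, 9 as microRNA genes and 1, ZPR4, as another kind of RNA. The Argonaute genes were the longest coding ones, AGO1 with 22 exons over 6964 bp and AGO10 with 20 exons over 5826 bp. ZPR2 was the shortest at 452 bp, with 2 exons. An intron in the 5′ UTR was annotated in AGO1, AGO10 and ZPR3. None of the 10 coding genes had a transcript with fewer than 8 mismatches to miR165 or miR166. The microRNA precursors were 90 to 136 bp, and MIR166C and MIR166D lay on the plus strand of chromosome 5 with starts 1978 bp apart.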

How the data were processed

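Poly(A) RNA from stems and leaves was sequenced as strand-specific libraries, per the labels. Trimmomatic 0.0.3, TopHat2 2.0.8 and build TAIR10 are named in the submitters' processing notes. The authors deposited the TAIR10 annotation used here, whose values are feature starts and ends in bp counted from 1. It has 590264 lines, 0 with a score, and 0 columns that belong to a library, so depth and its precision are not analysed here.

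The first listed isoform of each gene was parsed in Python 3.11.15, with numpy 2.4.6. Sequence came from TAIR10.1, whose 5 nuclear chromosomes have the same lengths; 27165 of 27206 coding genes gave an intact frame. Proteins were translated from it and aligned with mafft 7.526, and identity was counted over columns where both genes have a residue. Neighbours were compared by blastp 2.17.0 with an e-value of at most 1e-10. MicroRNA sites were sought in every window of 21 bases without gaps. The site and shared-stretch searches were tested on simulated sequences. Figures were drawn with matplotlib 3.10.9. The members and gene lists were chosen with earlier results of these data known. Named genes are the members, list genes at the extremes of exon number and span, microRNA genes whose sequences are printed, and overlapping or neighbouring genes. ZPR3, ZPR4 and the pair MIR166C and MIR166D were singled out after their values were seen. Neighbours named were chosen after their matches were seen. Alternatives were other isoforms, the TAIR10.1 annotation, other exon matching, mismatch rules and neighbour distances.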

Additional observations from a re-analysis of the deposited data

How the results depend on the processing

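Of 33 alternatives, 22 left the value as it was or, for a count, within 1.5 times of it, and 11 moved it. Coding exons of 1 length in all 5 members were 2 when matched by order from the start codon, 0 from the stop codon, 5 by protein alignment and 4 when lengths within 3 bp counted as equal; the joined exons of PHB and HB8 shift the order, so the alignment was used in the text. The median intron of all nuclear coding genes was 100 bp over all isoforms and 100 bp in TAIR10.1, against 99 bp. Class IV HD-ZIP genes with an intron in the 5′ UTR were 8 in TAIR10.1, against 5. Genes with a microRNA site were 13 with G:U counted as a pair and 12 with 1 mismatch more, against 5. Median protein identity over the 10 pairs was 63.1% with gaps counted, against 66.1%. With 10 loci on each side, matched neighbours fell to 2 for PHB and PHV, against 8, and to 0 for CNA and HB8, against 3, while PHB and HB8 had 2. Under a stricter e-value limit, PHB and PHV kept 8 and CNA and HB8 kept 3, while PHB and HB8 fell to 0. No paired analysis was possible because only the annotation, which has no libraries, was used. The annotation gives no measure of its own error, UTR ends differed between annotations, and an isoform listed once is not a measured level.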

Other observations

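The GC content of the coding sequence was 46.2% in REV, 46.3% in CNA, 47.2% in PHV, 47.8% in PHB and 47.8% in HB8. Introns were poorer in GC, at 32.9% in REV, 31.4% in PHB, 30.7% in PHV, 30.3% in CNA and 29.2% in HB8. The order of the 5 genes thus differed between coding sequence and introns. HB8, level with PHB, was highest in coding sequence and lowest in introns. REV, with CNA close to it, was lowest in coding sequence and REV was highest in introns.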
